A study of Caenorhabditis elegans with 2 samples.

Results

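The outer 4 Mb at each end of chromosomes II, III and V of Caenorhabditis elegans were examined for binding of a tagged tag-97 protein. Regions were taken from the joint ranked list and kept when their summit, the deposited point of highest signal, lay in the first or last 4 Mb of 1 of these 3 chromosomes. The rule kept 30529 of the 118176 ranked regions (25.8%), and the middle parts of the same chromosomes held 30005. The arms so defined cover 24 Mb and the middle parts 25.99 Mb. The boundary is a fixed distance and not a measured change in recombination rate.

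The data come from chromatin immunoprecipitation followed by sequencing, in which DNA bound by a protein is recovered with an antibody and read to find where the protein sat. Both biological replicates were whole L4 larvae, aged 66 hours, of strain OP719, grown from L1 larvae starved after bleaching. They carried wgIs719, a transgene with tag-97 fused to TY1, EGFP and 3xFLAG and with the unc-119(+) marker, in the unc-119 (tm4063) background. The fusion was precipitated with an antibody to GFP from chromatin sonicated to 200 to 800 bp, and the labels name svh-5 as the targeted gene. All cell types of the animal were mixed, the fusion was read from a transgene, and untagged animals were not analysed here. There was 1 group of 2 replicates, so no test was run, and each difference below is a description.

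In C. elegans autosomes, the ends of the chromosomes recombine often, whereas the central part recombines rarely and holds many conserved and essential genes. The arms are rich in repeats and transposon remnants, carry more methylation of histone H3 at lysine 9 and lie against the nuclear periphery. Fast-evolving gene families, such as F-box genes and chemoreceptors, are common there. The annotated sequence showed this in part. Repeats masked in the reference took 43.1% of the arm bases and 29.0% of the middle, and words of 31 bases found more than once in the genome covered 12.1% and 6.16%. Protein-coding genes numbered 4741 in the arms, or 197.5 per Mb, against 6342, or 244 per Mb. GC content was close, at 36.0% and 35.4%.

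A region is called listed below when it was in the joint thresholded list, which keeps regions with a low irreproducible discovery rate (IDR), a measure of how poorly a region holds its rank between inputs. Of the 30529 arm regions, 54 were listed, or 0.177% (exact 95% interval 0.133 to 0.231%). The share over all chromosomes was 0.272%, and in the middle parts it was 65 of 30005, or 0.217% (0.167 to 0.276%). Intervals cover counting error only. The 54 arm regions made up 50 separate loci, because 4 pairs overlapped.

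The sequences of the strongest listed arm region, trimmed to the stretch free of untranslated regions, and of the next 3 shown that overlap none are given first, since they carry the highest signals. All are from the plus strand of ce11 in the RefSeq assembly. The first is the stretch chrII:11759312-11759577 between F44E5.4 and F44E5.5, a divergent pair of HSP70 family genes. Capitals mark matches to TTCNNGAA, the paired unit read by heat shock factor, which is its own reverse complement; the stretch holds 5.
F44E5.4 and F44E5.5: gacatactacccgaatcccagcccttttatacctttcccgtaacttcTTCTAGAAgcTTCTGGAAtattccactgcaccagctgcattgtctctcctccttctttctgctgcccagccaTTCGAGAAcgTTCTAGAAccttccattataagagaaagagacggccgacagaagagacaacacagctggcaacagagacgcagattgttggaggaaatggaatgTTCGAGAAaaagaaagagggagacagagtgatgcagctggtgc
The second is chrII:14561795-14561941, upstream of mog-4, which encodes an RNA helicase needed for the switch from sperm to oocytes. The third is chrIII:3867497-3867616, upstream of rpl-3, a protein of the large ribosomal subunit. Capitals mark GTACAC on either strand in both.
mog-4: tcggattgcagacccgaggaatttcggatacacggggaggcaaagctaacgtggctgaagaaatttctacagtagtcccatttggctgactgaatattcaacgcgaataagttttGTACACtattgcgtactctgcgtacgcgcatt
rpl-3: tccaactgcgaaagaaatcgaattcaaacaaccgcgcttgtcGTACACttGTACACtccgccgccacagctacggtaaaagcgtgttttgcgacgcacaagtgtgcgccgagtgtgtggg
The fourth is chrIII:10270814-10271109, upstream of cnk-1, a scaffold of the Ras pathway. Capitals mark CTAGGCCA, which contains the word CTAGGC.
cnk-1: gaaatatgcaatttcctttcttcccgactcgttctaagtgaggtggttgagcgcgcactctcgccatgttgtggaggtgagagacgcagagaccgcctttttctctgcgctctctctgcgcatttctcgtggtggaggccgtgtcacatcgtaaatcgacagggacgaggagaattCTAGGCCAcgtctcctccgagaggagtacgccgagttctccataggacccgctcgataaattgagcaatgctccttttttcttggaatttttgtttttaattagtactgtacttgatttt

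These words were not common to the listed arm regions. Within 50 bp of the summit, on both strands, GTACAC was found in 7 of 54 listed arm regions (13.0%) and in 2.44% of all ranked arm regions. The middle gave 8 of 65 and 2.63%. CTAGGCCA was found in 2 of 54 listed arm regions (3.70%) and in 0.839% of ranked ones, whereas the middle gave 9 of 65 (13.8%) and 0.160%. TTCNNGAA occurred somewhere in 10 of 54 listed arm regions (18.5%) and in 19.9% of ranked ones over their whole length. Matches numbered 2 or more in 2 of 54 listed arm regions (3.70%) and in 3.07% of ranked ones. The middle gave 15 of 65 (23.1%) and 19.2%, with 2 or more in 5 of 65 (7.69%) and 2.29%. A word match is a description of letters and not a binding site. GTACAC and CTAGGC had been named in an earlier analysis of these same lists. The higher shares of GTACAC and CTAGGCCA among listed regions are therefore not independent of that choice.

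Other listed arm regions carried repeated or self-complementary sequence, and examples are shown because such sequence was commoner among ranked regions of the arms than of the middle. In chrIII:13187919-13187998, within an intron of gly-5, an enzyme that starts O-linked sugar chains, capitals mark an inverted repeat of 2 complementary stretches of 15 bases with 30 bases between. In chrIII:10856988-10857073, within an intron of Y39A1C.1, the stretches are 14 bases long with 38 between.
gly-5 intron: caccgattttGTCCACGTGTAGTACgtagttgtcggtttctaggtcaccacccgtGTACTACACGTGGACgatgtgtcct
Y39A1C.1 intron: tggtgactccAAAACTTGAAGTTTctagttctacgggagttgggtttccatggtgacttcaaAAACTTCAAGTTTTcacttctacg
A pair of listed regions lay in an intron of srw-100, a chemoreceptor gene, at chrV:1712636-1712736 and chrV:1713936-1714036 around their summits. Capitals mark GATTTGCC, found 3 times in each.
srw-100 intron, first region: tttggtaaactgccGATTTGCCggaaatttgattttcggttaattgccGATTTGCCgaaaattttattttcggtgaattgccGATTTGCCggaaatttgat
srw-100 intron, second region: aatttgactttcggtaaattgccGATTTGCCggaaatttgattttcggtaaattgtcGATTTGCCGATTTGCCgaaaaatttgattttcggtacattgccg
Another pair lay between genes at chrII:1452126-1452226 and chrII:1457951-1458051. Capitals mark TTTTCCGC or its reverse complement, found 5 times in each.
Chromosome II pair, first region: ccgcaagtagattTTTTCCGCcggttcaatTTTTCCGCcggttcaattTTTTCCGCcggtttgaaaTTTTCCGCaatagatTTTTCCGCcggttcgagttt
Chromosome II pair, second region: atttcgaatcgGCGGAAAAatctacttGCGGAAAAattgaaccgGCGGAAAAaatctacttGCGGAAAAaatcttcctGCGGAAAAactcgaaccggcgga
Inverted repeats with stretches of at least 12 bases were present in 10.5% of ranked arm regions and 3.29% of ranked middle regions, and in 6 of 54 and 3 of 65 listed ones. The listed arm share of 11.1% was therefore close to that of all arm regions. GATTTGCC was in 2.73% of ranked arm regions and 0.567% of ranked middle regions within 50 bp of the summit, on either strand. For TTTTCCGC the shares were 1.25% and 0.553%.

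Ranked regions were somewhat denser in the arms than in the middle, while listed regions were not. The arms held 1272 ranked regions per Mb and the middle 1155, a ratio of 1.10. The ratio was 1.08 on chromosome II, 1.11 on III and 1.09 on V. In the replicates' own ranked lists it was 1.20 for replicate 1 and 1.12 for replicate 2. Ranked regions were thus denser in the arms in both replicates and on all 3 chromosomes. Repeated sequence moved with this: 22.3% of ranked arm regions, against 9.01% in the middle, held a 31-base word present more than once in the genome within 50 bp of the summit. Counting single-copy regions alone over all bases gave a ratio of 0.941, and the bases were not corrected for the larger repeated share of the arms. The part of repeats in the density was not tested.

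Listed regions numbered 2.25 per Mb in the arms and 2.50 in the middle, a ratio of 0.900. The left and right arms held 10 and 11 on chromosome II, 9 and 15 on III, and 6 and 3 on V. The ratio was 0.869 on II, 1.02 on III and 0.559 on V, so the arms of II and V were below their middle parts. Replicate 1 had 11 listed regions in the arms in its own thresholded list and 20 in the middle, where 0.0834% of its ranked regions over the genome were listed. Replicate 2 had 12 and 16, with a genome share of 0.103%. In the conservative list, made by ranking the replicates against each other, the arms had 31 and the middle 42, with a genome share of 0.159%. Per Mb, these lists gave ratios of 0.596, 0.812 and 0.799.

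Among listed regions, the arms of chromosome V stood lowest. They held none of the regions in the replicates' own thresholded lists, 0 of 7031 ranked regions for replicate 1 and 0 of 5571 for replicate 2. A count of 0 allows shares of up to 0.0427% and 0.0539%, taking 3 counts as the limit, and up to 0.0525% and 0.0662% by the exact 95% interval. The middle of V held 9 and 6. The conservative list had 4 regions on the left arm of V and 0 on the right. The arms of III together had ratios of 1.08 and 1.20 in the replicates and 1.17 in the conservative list. The right arm carried this: it had 3.75 listed regions per Mb in the joint list, the left arm 2.25 and the middle 2.94, and the left arm was below the middle in the other 3 lists too.

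The signal of a typical ranked region was almost the same in the arms and the middle. Signal is the value deposited for each region; its scale is not stated, so it is compared within a list only. The median was 18.7 in the arms, with quartiles of 11.6 and 26.4, and 18.3 in the middle, with quartiles of 11.4 and 26.02. In replicate 1 the medians were 10.1 and 10.2, and in replicate 2 they were 14.06 and 14.08. The joint ratio of 1.02 was thus not shared by the replicates, which gave 0.992 and 0.999. Ranked regions in the arms had a higher median GC content around the summit, 39.6% against 37.6%, and signal rose with GC in both compartments. Within GC bins the ratio of medians ran from 0.971 to 1.05. At the top of the range the arms had fewer regions: 81 of 30529 (0.265%) had a signal of at least 60, against 117 of 30005 (0.390%).

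**Figure D1:**
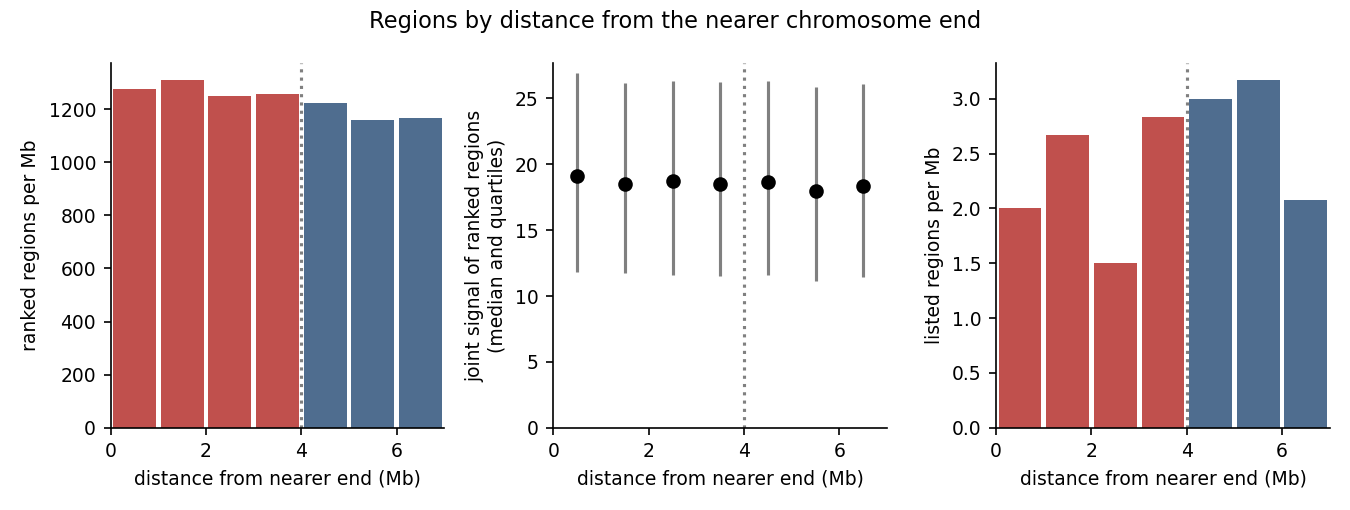
Ranked regions per Mb (left), median joint signal of ranked regions with quartiles (centre) and listed regions per Mb (right), in bins of 1 Mb from the nearer end of chromosomes II, III and V. Red bars are the arms and blue bars the middle, and the dotted line is the 4 Mb limit. The bins stop at 7 Mb, so the deeper middle of II and V is not shown. Ranked density goes from 1275 per Mb in the outermost bin to 1165 in the last bin shown, with no step in signal at the limit.

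The profile from the chromosome ends inward changed little in ranked density and signal at 4 Mb. Ranked density was 1275, 1308, 1250 and 1256 per Mb in the 4 arm bins and 1224, 1158 and 1165 in the next 3. The bins stop at 7 Mb from the nearer end and leave out the deeper middle of II and V. Listed counts in the arm bins were 12, 16, 9 and 17. Of the 12 in the outermost Mb, 9 were on chromosome III. The 1842 regions within 250 kb inside the limit had a median signal of 18.8 and 4 were listed, and the 1846 within 250 kb outside it had 18.6 and 3. Within 500 kb, 12 of 3775 regions were listed inside and 6 of 3668 outside, with median signals of all ranked regions of 18.5 and 18.7.

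The listed arm regions had a median signal of 74.9, and those of the middle 76.6. Listing depends on signal rank, so these medians describe what passed. The arms held 5 of the 10 strongest and 10 of the 25 strongest listed regions of the 3 chromosomes, beside 54 of all 119 (45.4%). The spread of the 54 values was wide, from 3.93 to 264. The lowest 4 values, 3.93, 10.9, 19.4 and 24.0, belonged to the weaker region of each overlapping pair, with summits 200 to 210 bp from the stronger one.

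**Figure D2:**
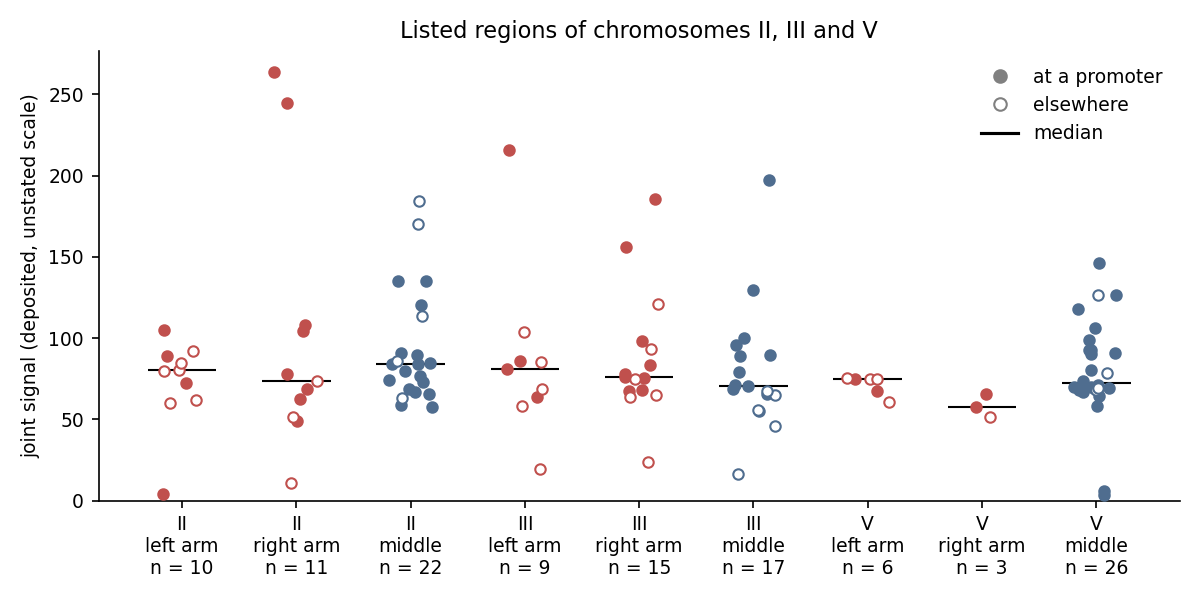
Joint signal of each listed region by chromosome arm or middle, with the median as a line. Filled points have a summit at a promoter and open points do not, and the highest points, 264, 245 and 216, are promoters in the right arm of II and the left arm of III.

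Of the 54 arm regions, 6 were also in both replicates' own thresholded lists, 5 of them at promoters. Their signals below are the joint value, then that of the overlapping region in each replicate's own ranked list, with no scaling between replicates. The region between F44E5.4 and F44E5.5, its summit 119 and 232 bp upstream of the genes' 5′ ends, had a signal of 264 jointly, 133 in replicate 1 and 130 in replicate 2. The mog-4 region had 245, with 137 and 103.8. The rpl-3 region had 216, with 115.1 and 99.7. These were the 3 highest listed values on the 3 chromosomes, and both replicates placed them far above their medians. The cnk-1 region had a joint signal of 186, with 83.9 in replicate 1 and 93.7 in replicate 2. The region 66 bp upstream of tasp-1, a homologue of the protease taspase, and 719 bp upstream of K01G5.10 had 156, with 82.6 and 57.2. The sixth lay in an intron of Y56A3A.7 and had 121, with 67.6 and 61.6. The mog-4 region aligned to 9 places, the cnk-1 region to 5 and the other 4 to 1 place.

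Of the remaining 48, 5 were in the list of replicate 1 alone, 6 in that of replicate 2 alone and 37 in neither, both pinn-1 regions counting among the 5, and 28 of the 54 were in the conservative list. The middle gave 10, 7 and 39, with 9 in both, and 38 of 65 in the conservative list. All 54 overlapped a ranked region of each replicate, as did all 65 of the middle, against 38.1% of all ranked arm regions. The joint list was made from both replicates together, so this overlap is not independent of the listing. With the overlapping pairs counted once, the replicates' signals across the listed arm regions had a Spearman correlation of 0.349 and a Pearson correlation of 0.824 (n = 50 loci, chosen by the joint ranking of both replicates). Over the 10122 distinct pairs of replicate regions at ranked arm regions, Spearman's value was 0.146. Order among ordinary ranked regions was therefore poorly shared by the replicates in the arms, as in the middle, where it was 0.155 (n = 8663).

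**Figure D3:**
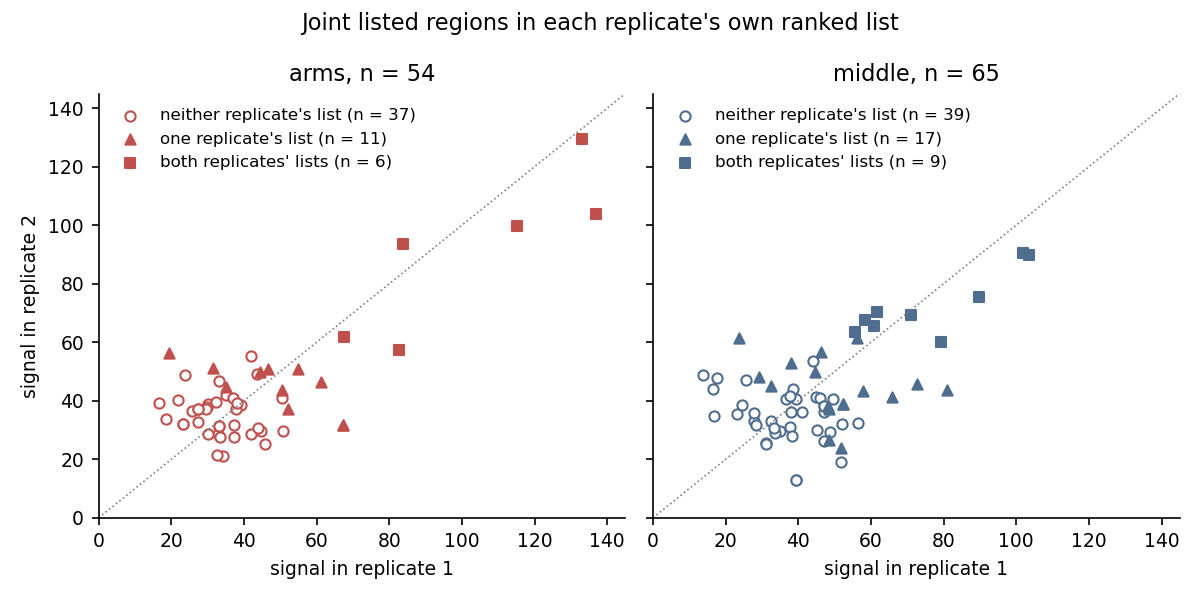
Signal of the joint listed regions in replicate 1 (horizontal) and replicate 2 (vertical), for the 54 arm regions (left) and 65 middle regions (right). Symbols show whether the region was in neither, one or both replicates' own thresholded lists, and the dotted line marks equal signal. The 6 arm regions in both lists hold the highest values on each axis.

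Genes with other roles followed among the listed promoters of the arms. A region 407 bp upstream of pinn-1, a prolyl isomerase gene, with its summit inside sqv-2, had a joint signal of 104.9, with 67.2 in replicate 1 and 31.6 in replicate 2. One at dnj-13, a DnaJ cochaperone, and F54D5.9 had 104.6, with 46.5 and 50.9, and its summit also lay in noncoding RNA models named F54D5.22. One at the unnamed gene Y62F5A.12 had 108, with 54.9 and 50.8, and its sequence aligned to 77 places. Each of these overlapped a ranked region in both replicates, as did every listed arm region. The region at Y22D7AL.10 and hsp-60, the mitochondrial chaperonin, had 86.0, with 50.5 and 41.0. The region between drr-2, a homologue of a translation initiation factor, and set-16, a histone H3 lysine 4 methyltransferase, had 83.4, with 50.7 and 29.8. Lower values were found at atx-2, the ataxin-2 homologue (77.9), 136 bp upstream of Y48B6A.1 and 785 bp upstream of rpl-43, a gene of the large ribosomal subunit (77.9), at cox-5A of cytochrome c oxidase (75.8), at dhhc-4, a palmitoyltransferase (75.5), at vig-1, a component of the RNA silencing complex (72.3), and at mrps-28 of the mitochondrial ribosome (57.5).

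Genes for small RNAs were also present. The summit at the small nuclear RNA gene R07E5.16, inside dhc-4, lay 5 bp into the gene and had a joint signal of 98.2, with 61.2 in replicate 1 and 46.4 in replicate 2. Its region aligned to 20 places. The transfer RNA gene WBGene00023160, inside the collagen gene col-72 and beside W09G10.9, had 88.9, and WBGene00023109 had 63.7. Their regions aligned to 2 and 6 places. The small nucleolar RNA genes ZK20.9, Y43F8C.22 and F07A11.15 had 62.8, 57.5 and 48.9. The shared region of Y43F8C.22 and mrps-28 is 1 region, so its signal cannot be assigned to either. In all, 47 genes of the arms had a listed summit at their promoter: 31 protein-coding, 8 noncoding RNA, 3 small nucleolar RNA, 2 transfer RNA, and 1 each of piRNA, pseudogene and small nuclear RNA.

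Large gene families had no listed promoter in the arms. Over the genome, 0.756% of protein-coding genes and 0.644% of all nuclear genes had one. In the arms it was 31 of 4741 protein-coding genes (0.654%), and in the middle 56 of 6342 (0.883%). Among arm genes, the count was 0 of 521 chemoreceptors, which allows a share of up to 0.576% when 3 counts are taken as the limit, and 0 of 224 F-box genes, which allows up to 1.34%. Families were drawn by gene name, so genes without a family name are left out. Over the genome 322 genes carry the F-box names used, and most of those lie in these arms. Chemoreceptors and nuclear hormone receptors were about as many in the middle. The arm count was also 0 of 75 MATH and BTB genes, 0 of 75 C-type lectins, 0 of 95 nuclear hormone receptors, 0 of 37 cytochrome P450 and glucuronosyltransferase genes, 0 of 22 cuticle collagens and 0 of 15 histones. Taking 3 counts, the chemoreceptor limit lies a little below the arm share of 0.654% and the limits of the other families lie above it. A lower share in the arms was thus not clearly detectable for any of these families. The chemoreceptors of the middle gave 0 of 569 as well, which allows up to 0.527% by the same limit, beside the middle share of 0.883%.

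Housekeeping lists held a few arm members. These were 2 of 9 cytosolic ribosomal protein genes (rpl-3, and rpl-43 through the region shared with Y48B6A.1), 2 of 7 chaperone genes (dnj-13, hsp-60), 1 of 12 splicing and RNA helicase genes (mog-4) and 1 of 7 oxidative phosphorylation genes (cox-5A), with 0 of 3 proteasome genes. The middle gave 1 of 27, 0 of 23, 1 of 16, 1 of 11 and 0 of 17. Among RNA genes of the arms the counts were 2 of 80 transfer RNA, 3 of 68 small nucleolar RNA, 1 of 29 small nuclear RNA and 0 of 64 microRNA genes, against 5 of 119, 9 of 112, 0 of 40 and 0 of 40. The counts are too small to order the compartments. The housekeeping lists were also drawn by gene name. The chaperone list therefore leaves out the HSP70 family genes F44E5.4 and F44E5.5, whose shared promoter region was listed.

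The location of ranked regions followed the gene content of the arms. A summit was placed at a promoter when it lay from 1000 bp upstream to 200 bp downstream of any gene's 5′ end, and otherwise in a coding exon, another exon, an intron or between genes. Promoters held 29.1% of ranked arm regions and 29.4% of arm bases, and in the middle they held 35.4% and 36.3%. Introns held 31.4% of ranked arm regions (33.5% of bases) and 19.6% in the middle (21.5%). Coding exons held 20.6% of ranked arm regions, above their 16.5% of bases, and 26.9% against 22.0% in the middle. The difference in promoter share of ranked regions, arms minus middle, was -6.26 percentage points by the joint list, and -7.17 and -6.24 points in replicates 1 and 2.

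Listed arm regions were at promoters in 29 of 54 cases, or 53.7% (exact 95% interval 39.6 to 67.4%), and listed middle regions in 51 of 65, or 78.5% (66.5 to 87.7%). The arm count was 12 of 21 on II, 13 of 24 on III and 4 of 9 on V, and the middle count 17 of 22, 12 of 17 and 22 of 26, so each chromosome had the lower share in its arms. The conservative list gave 18 of 31 (58.1%) and 35 of 42 (83.3%). The replicates' own lists gave 8 of 11 and 15 of 20 for replicate 1, or 72.7% and 75%, and 8 of 12 and 11 of 16 for replicate 2, or 66.7% and 68.8%. The gap was thus not seen in the short lists of the single replicates. At an IDR of at most 0.05 it was smaller, with 85 of 231 in the arms (36.8%) and 121 of 263 in the middle (46.0%), and with arms of 3 Mb it was larger, with 15 of 37 (40.5%) and 65 of 82 (79.3%). It also turned round among regions with an IDR of at most 0.001, where 8 of 9 in the arms (88.9%) and 12 of 16 in the middle (75%) were at promoters. Both overlapping pinn-1 regions are counted among those 8, so 1 locus enters the arm count more than once. All but 1 of the 25 listed arm regions away from promoters had an IDR above 0.001.

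**Figure D4:**
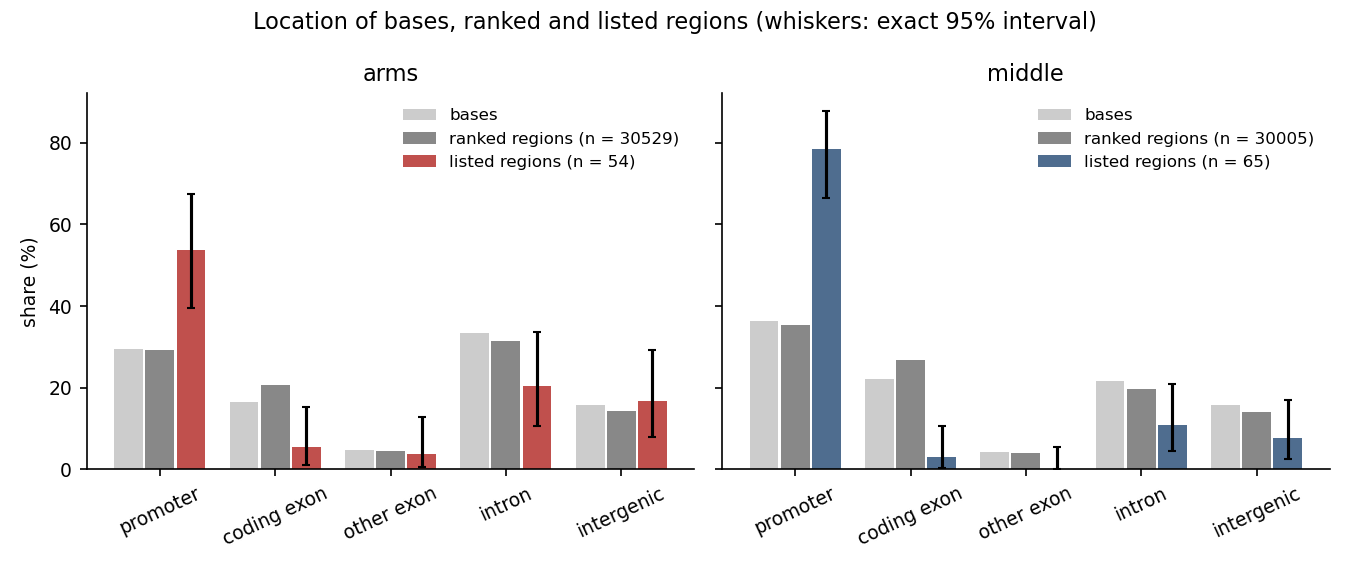
Share of bases (light grey), ranked regions (dark grey) and listed regions (colour) in 5 kinds of location, for the arms (left) and the middle (right). Whiskers are exact 95% binomial intervals on the listed share, and listed promoters make up 53.7% in the arms and 78.5% in the middle.

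Of the 25 listed arm regions outside promoters, 11 were in introns, 9 between genes, 3 in coding exons and 2 in other exons. The strongest after the Y56A3A.7 intron was in an intron of stim-1, the calcium sensor of the endoplasmic reticulum, with a joint signal of 104.0. Replicate 1 gave 41.8 there and replicate 2 gave 55.3. The gly-5 intron had 93.0, with 44.4 in replicate 1 and 49.99 in replicate 2. A region 2478 bp upstream of nhr-88, a nuclear hormone receptor gene, had 92.1, with 52.1 and 37.3. A region in a coding exon of dos-3, a Notch co-ligand, had 85.2, with 50.4 and 43.8. Of these 4, the nhr-88 and dos-3 regions were in the list of replicate 1 and the gly-5 region in that of replicate 2.

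Sequence shared with other places was frequent among the listed arm regions away from promoters. When matches to the genome of 100 bp or more with 80% identity or more were counted, 18 of 54 listed arm regions (33.3%) and 12 of 65 middle regions (18.5%) aligned to more than 1 place. Outside promoters these were 11 of 25 in the arms and 1 of 14 in the middle. At promoters they were 7 of 29 and 11 of 51. A share for all ranked regions is given only for 31-base words present more than once in the genome, within 50 bp of the summit. Such a word was in 22.3% of ranked arm regions and 9.01% of ranked middle regions. Among listed regions it was in 17 of 54 and 11 of 65. By this measure the arms were higher among ranked regions too, and listed regions exceeded ranked regions in both compartments. In introns, 6 of 11 listed arm regions aligned to more than 100 places each, and 0 of 7 did in the middle. The intron of stim-1 had 227 places, the intron of brc-1 (the BRCA1 homologue) 550, the intron of anoh-1 507, the srw-100 pair 217 and 170, and the intron of T21H3.5 110. Where a sequence has many places, a read from one cannot always be placed, and the treatment of such reads is not described in the sources.

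High numbers of places did not go with the highest signals among the listed arm regions. Unlisted regions are left out here. The strongest of those held repeated words and exceeded every listed arm region, as given below. The 550-place brc-1 intron region had a joint signal of 69.0, with 29.8 in replicate 1 and 37.8 in replicate 2. The T02H6.3 region, between genes with 156 places, had 84.6, with 19.3 and 56.2. The 1-place regions at F44E5.4 and rpl-3 were among the strongest. The mog-4 region aligned to 9 places and shared an exact stretch of 103 bases with the brc-1 intron region, at chrII:14561824-14561926 and, on the other strand, chrIII:3857168-3857270. Within this pair of related sequences the joint signals were 245 and 69.0. A further region in brc-1, at the pseudogene WBGene00164983, had 28 places and a joint signal of 81.1. The srw-100 pair had 74.7 and 74.7, and the chromosome II pair shown above had 80.4 and 79.9 with 18 and 26 places.

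**Figure D5:**
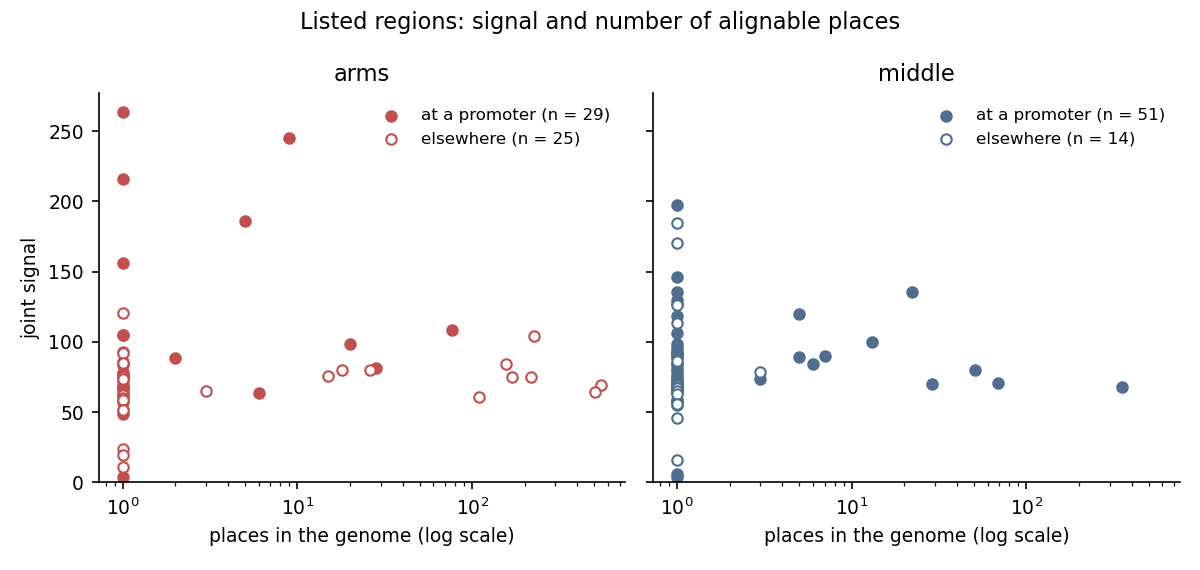
Joint signal of each listed region (vertical) against how many genomic places its sequence aligns to (horizontal, log scale), for the arms (left) and the middle (right). Filled points are at promoters and open points elsewhere. All 7 arm regions above 100 places are open points, and the middle has 1 region above 100 places, at a promoter.

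Some arm regions met an IDR of 0.01 in the joint ranking and were not in the thresholded list. Over the genome 0.335% of ranked regions met it, listed ones included, and 0.272% were listed. In the arms 13 unlisted regions of 30529 ranked ones met it, against 20 of 30005 in the middle. The 13 had a median signal of 96.9 and a range of 63.2 to 333. The strongest was between genes in the left arm of III, with anr-53, an antisense RNA gene, as the nearest 5′ end. Its joint signal of 333, with 210 in replicate 1 and 145 in replicate 2, was above every listed arm region. The strongest in the right arm of II, nearest to ddl-3, had 210, with 87.7 and 100.99. In the right arm of V, a region nearest to Y61B8B.3 had 143, with 43.6 and 93.1. All 3 held repeated words, and the chromosome V region was stronger than every listed region of the arms of V, where the highest was 75.7. The strongest of the remaining arms were in an intron of usp-39, a splicing factor gene (108), near lgc-26, a ligand-gated channel gene (116), and in a coding exon of mdt-29, a Mediator subunit gene (96.6). The usp-39 region had no overlapping region in replicate 1 and the lgc-26 region none in replicate 2. Such unlisted regions numbered 3 and 1 on the left and right arms of II, 1 and 1 on those of III, and 2 and 5 on those of V. The 20 of the middle are not split by chromosome here. The sources do not say how these regions were left out.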

How the data were processed

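Binding of the tagged protein was measured in 2 biological replicates of 1 group. Per the labels, regions are on ce11; the aligner and peak caller are not named in the sources used here. From 8 deposited lists, 4 ranked and 4 thresholded, the signal column was used as deposited by the authors, on an unstated scale. The score column deposited by the authors rises with reproducibility. The −log10 IDR deposited in the ranked lists was turned back into an IDR. Read depth is unknown. The values of each replicate came from its own ranked list (the highest overlapping region). In the ranked lists, 8 further columns of signal per input were not used, since their names do not give a sample. The thresholded lists were made with an additional input that is not described.

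Summits were placed on Ensembl release 115 gene models and the RefSeq ce11 genome, which also gave the sequences. Copies were sought with blastn 2.17.0 (at least 100 bp, 80% identity). Python 3.11.15, NumPy 2.4.6, pandas 2.3.3, SciPy 1.17.1 and matplotlib 3.10.9 were used, and the placing of regions in arms and the ratio of medians were checked on simulated data. Intervals are exact binomial at 95%. No test was run, since regions are not replicates and 2 replicates are too few for a test over samples to pass. Genes named were those at the 20 strongest listed arm regions, those in both replicates' lists, members of gene lists, and the strongest unlisted region of each arm; a few further listed promoters, intron regions and sequence examples were picked with their values known. The members and lists were chosen with earlier results of these data known. The sequence of 1 further region is not reported here.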

Additional observations from a re-analysis of the deposited data

How the results depend on the processing

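Of 61 alternative values, 28 differed from the reported one by less than the spread between replicates (or, for the count of listed regions, by no more than 1.5 times), 27 moved further without changing direction, and 6 changed direction. Leaving out a replicate means using the other replicate's own lists. The ranked density ratio was 1.12 to 1.20 with a replicate left out and 0.941 with single-copy regions only. The listed arm count was 11 to 12 with a replicate left out, 31 in the conservative list, 231 at an IDR of 0.05 and 9 at 0.001. The listed density ratio was 0.596 to 0.812 with a replicate left out, 0.742 for single-copy regions, 0.609 at an IDR of 0.001 and 1.02 with arms of 5 Mb. The ratio of median signals of ranked regions was 0.992 to 0.999 with a replicate left out, 1.017 in the conservative ranking, 1.029 with overlapping regions merged and 1.028 for single-copy regions. For listed regions it was 0.908 to 1.14 with a replicate left out and 1.23 at an IDR of 0.001. The promoter share of ranked regions, arms minus middle, was -7.17 to -6.24 points with a replicate left out, -7.13 with arms of 3 Mb, -5.47 for single-copy regions, -3.87 with a narrower promoter window (500 bp before to 100 bp after the 5′ end) and -3.97 with protein-coding 5′ ends only. The promoter share of listed arm regions was 66.7 to 72.7% with a replicate left out, 40.5% with arms of 3 Mb, 58.3% with 5 Mb, 58.1% in the conservative list, 59.5% for single-copy regions, 36.8% at an IDR of 0.05, 88.9% at 0.001, 46.3% with the narrower window and 40.7% with protein-coding ends. The causes were not tested, except that the stricter lists hold fewer regions. No paired analysis was possible because there was 1 group and the results come from no test; arms and middle are given within each replicate instead. Depth is unknown, so no limit from depth is given.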
